A study of Homo sapiens with 6 samples.

Results

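The cytosolic ribosomal protein genes encode the protein parts of the large and small ribosomal subunits in the cytoplasm. They were taken from the deposited gene table by symbol alone, as RPL or RPS followed by a number and at most the letters A, X, L or AL, together with RPLP0, RPLP1, RPLP2 and RPSA, and a mean of at least 10 counts over the 6 libraries was required. Of 57905 rows in the table, 84 matched by symbol and 80 also had the counts, 48 of the large subunit and 32 of the small. The 4 rows left out had mean counts of at most 6.33, and RPL3L and RPL10L among them had 2.17 and 0. The members include the paralogues RPS27L, RPL36AL and RPL39L, whose symbols end in L.

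Expression was measured by RNA-seq of poly(A)-selected RNA in HK-2 (Human Kidney-2), an immortalized human proximal tubular cell line labelled as wild type. One group of 3 libraries received a pool of siRNAs targeting INO80, the ATPase of a chromatin remodelling complex, and the other group of 3 received a non-targeting siRNA pool. Both were transfected with RNAiMAX, grown in the same serum-containing medium and harvested after 48 h. The comparison asks which transcripts differ when INO80 is knocked down, and nothing in the labels says whether the 3 replicates of a group were separate cultures, so the p-values measure only the spread between these samples.

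Ribosomal proteins are made in near equal numbers and are assembled on ribosomal RNA in the nucleolus. Their mRNAs are among the most abundant of dividing cells, and most of them begin at the cap with a cytosine followed by a run of pyrimidines, the 5′ terminal oligopyrimidine (TOP) motif, through which mTOR and LARP1 control their translation. Unassembled RPL5 and RPL11 can bind MDM2, and mutations of several members cause Diamond-Blackfan anaemia.

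The start sites of RefSeq (GRCh38.p14) were read for the 64 of the 80 members that its promoter table lists. Stretches of 30 bases are shown 5′ to 3′, 12 before the annotated start and 18 from it onward. They are given for the members that the results below turn on (those lowest under INO80 siRNA, the stalk, RPS23 and RPL13A among the highest). The member highest in the authors' level per length (FPKM, explained below) and a member beside its paralogue are shown too. Capitals mark a run of at least 5 C or T bases opened by C that lies nearest to the start, read on the transcribed strand. Where a gene had several listed starts, the one with such a run nearest to it is shown, which favours runs at the start.
RPL22: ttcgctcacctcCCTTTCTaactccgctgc
RPL7A: caattccctttcCTTTCTCTCTCCTCCCgc
RPS15: gcaggcgcggaccaaagcgatCTCTTCTga
RPLP0: cgggcgcgaggcCCTTCTCTCgccaggcgt
RPLP1: taggcgcgagagCCCCTTTCCTCagctgcc
RPLP2: cgtcggcgccttCCTTTTCCTCCCTgtcgc
RPL12: cgcgatttccggCCTCTCggctttcggctc
RPS23: tgcggtgcttctCTCTTTCgctcaggcccg
RPL13A: caaaacctcctcCTTTTCCaagcggctgcc
RPS12: tgcggatgaggcCTCTTTCCCTgccgccgc
RPS27: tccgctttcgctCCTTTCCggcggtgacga
RPS27L: ttgatgccgagcgcagatcgcttgcagctt
These stretches lie at chr1:6199578-6199607 (minus strand) for RPL22, chr9:133348206-133348235 (plus) for RPL7A and chr19:1438384-1438413 (plus) for RPS15. The stalk genes RPLP0, RPLP1, RPLP2 and RPL12 start within chr12:120201094-120201123 (minus), chr15:69452806-69452835 (plus), chr11:809955-809984 (plus) and chr9:127451389-127451418 (minus). The stretch of RPS23 is at chr5:82278337-82278366 (minus), that of RPL13A at chr19:49487596-49487625 (plus), that of RPS12 at chr6:132814557-132814586 (plus), that of RPS27 at chr1:153990750-153990779 (plus) and that of RPS27L at chr15:63157460-63157489 (minus).

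In all of these except RPS15 and RPS27L the run begins at base 1 of the annotated transcript. In RPS15 it begins at base 10, and the stretch of RPS27L holds no such run, while that of its paralogue RPS27 does. The bases before the start were not considered in placing a run. In RPL22, RPL7A, RPS23 and RPL13A, among others, C or T bases also stand directly before it. Over all listed members the run stood at base 1 in 46 of 64 (71.9%), against 7.28% of the 10026 tested genes in the promoter table and 5.14% of its 27305 genes. Here and in the later shares of motifs, a gene with several listed starts was counted if any of them matched. When the run could open within 10 bases on either side of the start, 89.1% of the members and 41.5% of the tested genes had it. In the window from 250 bases before to 50 after the start, both strands searched, the ETS-type core CGGAAG was found in 65.6% of the members and 37.7% of the tested genes (22.6% of all genes listed), and the GC box GGGCGG in 59.4% and 77.3% (48.3% of all). The YY1-type AAGATGGC was in 9.38% and 6.44% (3.52% of all), the E-box CACGTG in 6.25% and 12.7% (8.77% of all), and TATAAA in 7.81% and 8.30% (14.0% of all). A match describes these letters only and is not evidence of binding.

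Counts per library on all genes ran from 16829273 to 23784599. INO80 was at 46.3, 49.3 and 54.0 CPM (counts scaled to library size by edgeR's TMM factors, which lay between 0.973 and 1.02) in control siRNA replicates 1, 2 and 3, and at 13.8, 12.1 and 14.2 CPM in the INO80 siRNA replicates, so that it fell by 1.90 on the log2 scale (SE 0.0956, edgeR's quasi-likelihood test, adjusted p = 0.000161). The proximal tubule markers LRP2, SLC5A12, SLC22A6, SLC22A8 and HNF4A had 0 or 1 counts in each library, which is at or under the limit of 3 counts that a count of 0 allows. GGT1, MME, PAX8, KRT8, KRT18 and KRT19 had at least 326 counts in every library. Markers of leukocytes, podocytes, the thick ascending limb and the collecting duct (PTPRC, NPHS1, UMOD and AQP2) had 0 counts in all 6 libraries, and ACTA2 of smooth muscle and myofibroblasts had 3 to 16.

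The ribosomal protein genes took 3.32%, 3.42% and 3.39% of all gene counts in control siRNA replicates 1, 2 and 3. Under INO80 siRNA they took 3.50%, 3.52% and 3.55%. Every INO80 siRNA library lay above every control library, and the means were 3.38% ± 0.0490 and 3.52% ± 0.0226 (SD, n = 3 each), a difference of 0.145 percentage points. Both subunits took part in it, the large going from 2.01% to 2.09% and the small from 1.36% to 1.43%. The difference was 0.153 points with the 13 protein-coding genes of mitochondrial DNA left out of the total, genes which held 1.13% to 1.89% of the counts and differed more between replicate numbers than between groups. No test was made on this share, and in bulk RNA a larger share per cell and fewer transcripts of other genes cannot be told apart.

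**Figure D1:**
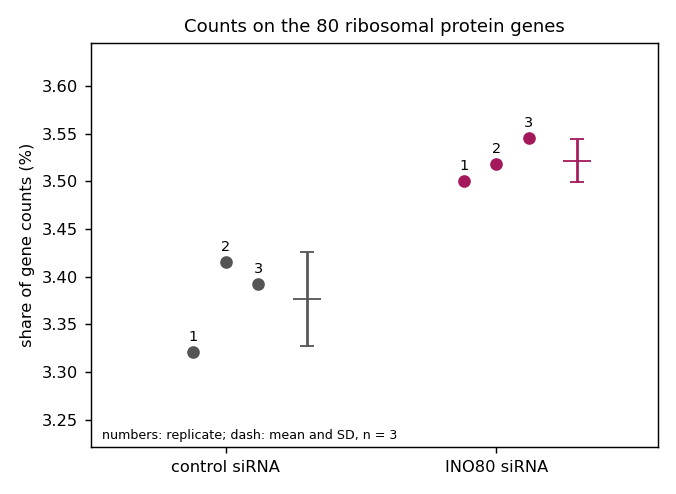
Share of all gene counts (%, axis not from 0) on the 80 ribosomal protein genes in each library, points numbered by replicate, with the group mean and SD (n = 3) as a dash with bars. The control libraries reach 3.42% at most and the INO80 siRNA libraries start at 3.50%.

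Levels per length spanned a wide range. Levels are given in FPKM, in which the authors divided each count by the exonic length of the gene and the total of the library. RPS12, a small subunit protein, was highest, at 876, 823 and 828 FPKM in the control libraries and 882, 883 and 892 in the INO80 siRNA libraries. RPL8, which lies near the peptidyl transferase centre, followed with 586, 606 and 609 FPKM against 644, 631 and 642. Their ranges do not meet, so the order of these genes was the same in every library. RPS21 (mean 433 FPKM), RPS18 (422) and RPS2 (383) came next, and RPS21 and RPS18 changed places between the groups, RPS18 being the higher under control siRNA in replicates 2 and 3.

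At the low end RPL36A had between 3.64 and 5.63 FPKM in the 6 libraries, RPL21 between 4.43 and 6.37, RPL39 between 7.70 and 9.46 and RPS26 between 8.19 and 9.25. RPL36A and RPL21 overlap each other across libraries, as do RPL39 and RPS26. These low values carry limits of counting: RPL36A overlaps the read-through gene RPL36A-HNRNPH2, and pseudogene rows named for RPL39 and RPL21 held 108% and 45.0% as many counts as the genes themselves. The counts of these genes are therefore uncertain, as are those of RPL7 and RPS2, for which the pseudogene rows held 27.8% and 26.8%. Further shares were 18.1% for RPS7, 15.6% for RPS3A, 13.6% for RPL24, 13.4% for RPL23A and 11.5% for RPSA. Over all members the median was 0.181%. This share holds only counts assigned to pseudogene rows, so a low value does not show that a gene is unaffected. Of the 80 members, 38 share sequence span with another row on the same strand, in many cases small nucleolar RNAs of their introns.

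The median member stood at 121 FPKM and the median tested gene at 4.6 FPKM. Of the 352 tested genes above 100 FPKM, 47 were members, and 16 members were among the 100 highest genes. The deposited exonic length of the members (median 2896 bases) exceeds that of their Ensembl canonical transcripts (median 785 bases, GENCODE v44, found for 79 members), and a longer length lowers the FPKM. With canonical lengths the highest 5 were RPS18, RPS24, RPS12, RPL8 and RPS21, of which 4 were shared with the first order. RPS24, whose transcripts are alternatively spliced near the 3′ end, went from rank 31 to rank 2. The paralogues RPL36AL, RPL39L and RPS27L stood at 169, 30.3 and 12.8 FPKM, and their partners RPL36A, RPL39 and RPS27 at 4.70, 8.40 and 104 FPKM. These levels use the exonic lengths. By canonical length RPL39 stood just above RPL39L (ranks 72 and 73), so the order of this pair depended on the length used. RPL36AL stayed above RPL36A (ranks 58 and 75), and RPS27 above RPS27L (ranks 51 and 79).

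**Figure D2:**
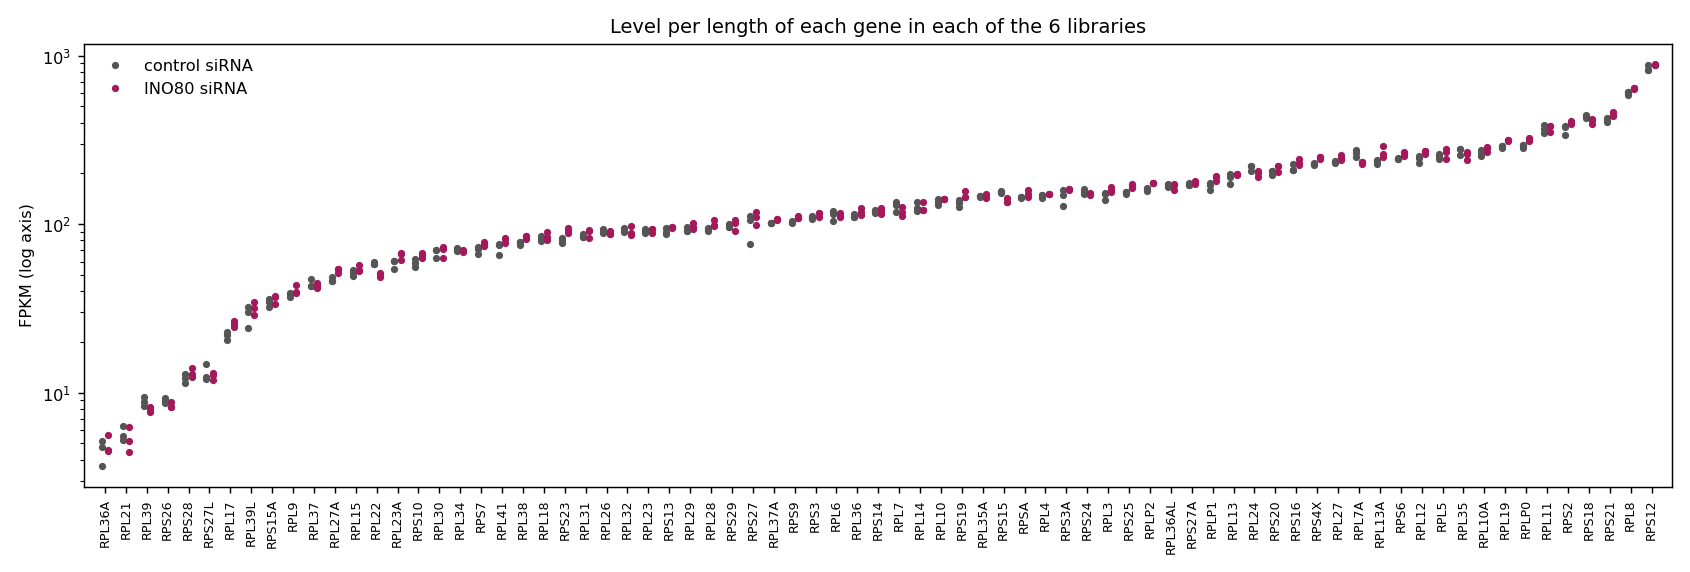
FPKM (log axis) of 75 of the genes in the 3 control siRNA (grey) and 3 INO80 siRNA (magenta) libraries, in order of the mean. Levels run from 4.70 FPKM for RPL36A to 864 for RPS12, and the points of the groups lie close together for nearly every gene.

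INO80 knockdown was then compared with control siRNA gene by gene. With the treatment alone in the model, 0 of 80 members passed an adjusted p of 0.05 in edgeR's quasi-likelihood test in either direction, and the smallest adjusted p was 0.0768 (RPL22). Over all 15343 tested genes, 0.261% were called higher and 1.49% lower (1.75% in either direction). Without replicate 1 in both groups, RPL7A and RPS15 fell and no member rose, beside 2.80% of genes lower and 0.575% higher in that fit. At an unadjusted p under 0.05 in edgeR's test, 10 of 80 members were higher and 4 of 80 lower, beside 7.18% and 9.20% of all tested genes. DESeq2 called only RPL22 (adjusted p = 0.0138), lower, beside 0.880% of genes higher and 3.27% lower. Log2 fold changes of the members ran from -0.23 to 0.22, which is 0.853-fold to 1.16-fold, and 45 of them lay within 0.1 of 0. Their median was 0.066, beside 0.0066 for all tested genes, and 57 of 80 (71.2%) were above 0, beside 51.5% of all tested genes.

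Libraries of the same replicate number deviated together, and a model with the replicate number as a block gave other calls. With the block, 27 members rose (33.8%, beside 11.4% of all tested genes) and 7 fell (8.75%, beside 13.4%), so that 34 of 80 were called where 24.8% of all tested genes were. The median standard error with the block was 0.0335 for the members and 0.0756 for all tested genes. Shares called or without overlap are therefore not compared at equal precision. Effects were small throughout, from 0.088 to 0.22 on the log2 scale among those that rose and from -0.089 to -0.23 among those that fell. The CPM of the groups did not overlap for 27 members higher under INO80 siRNA (33.8%) and 7 lower (8.75%), beside 11.3% and 11.5% of all tested genes. These are not all the same genes, since 20 of the 27 and 6 of the 7 were also called with the block. In all 3 replicate pairs 42 of 80 members were higher and 11 of 80 lower, beside 26.8% and 25.9% of tested genes.

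Calls with the block depended on the libraries. Without replicate 1 in both groups, 28 members were called higher and 9 lower (11.3% and 14.1% of all genes tested in that fit), without replicate 2 it was 17 and 3 (7.23% and 9.76%), and without replicate 3 it was 8 and 3 (6.19% and 8.42%). DESeq2 with the block called 13 and 5 (4.50% and 7.57%). The members called in all 3 of these reduced fits included RPL17, RPS23, RPL13A, RPS19, RPLP1, RPL23A and RPL12, higher, and RPL22, RPL7A and RPS15, lower. DESeq2 with the block called each of these as well. The reduced fits hold fewer libraries and share libraries with one another, so they are not independent checks. Their adjusted p-values could also be smaller than with all libraries. In edgeR with the block, RPL7A had 0.000119 with all libraries and 1.19e-15 without replicate 1.

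**Figure D3:**
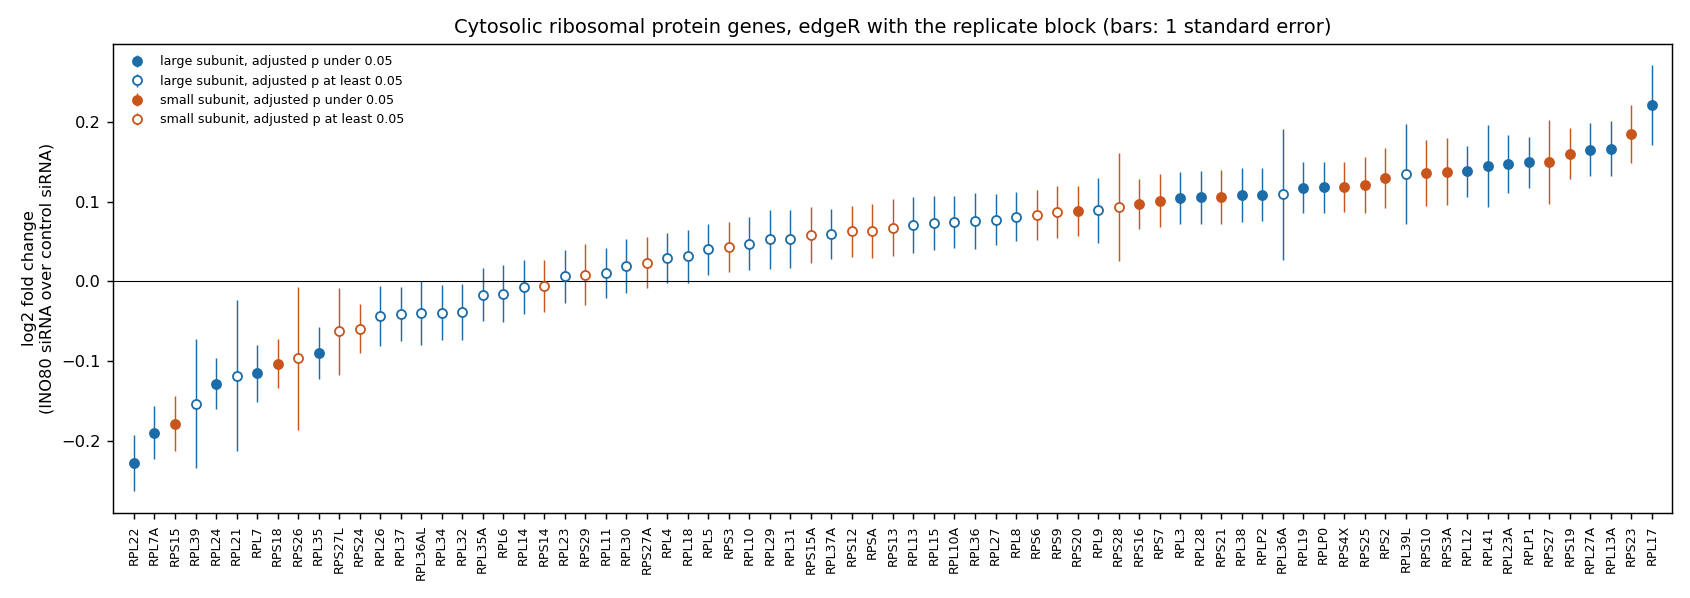
Log2 fold change (INO80 siRNA over control siRNA, edgeR with the replicate block, bars 1 standard error) of 75 of the genes in order. Blue points are large subunit and orange points small subunit genes, filled where the adjusted p is under 0.05, with 7 filled below 0 and 25 above it, from RPL22 at -0.23 to RPL17 at 0.22.

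RPL22, a large subunit protein that cells can do without and that has the paralogue RPL22L1, was the lowest member. It was at 299, 284 and 281 CPM in control siRNA replicates 1, 2 and 3 and at 244, 248 and 244 CPM under INO80 siRNA. All INO80 siRNA libraries lay below all control libraries, and the log2 fold change was -0.23 ± 0.0350 with the block (adjusted p = 2.24e-05). RPL22L1 was at 35.8, 30.7 and 32.7 CPM against 39.8, 31.4 and 33.8 CPM, values that overlap (adjusted p = 0.395 with the block).

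RPL7A, a large subunit protein whose introns hold 4 small nucleolar RNAs, was at 575, 618 and 587 CPM under control siRNA and 526, 516 and 518 CPM under INO80 siRNA. RPS15, whose tail reaches towards the decoding centre of the small subunit, was at 353, 347 and 340 CPM against 326, 299 and 296 CPM. Neither gene overlapped between the groups. Their log2 fold changes were -0.19 ± 0.0333 and -0.18 ± 0.0342 with the block (adjusted p = 0.000119 and 0.000325).

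The other members that fell with the block were RPL24, which forms a bridge between the subunits, RPS18 of the small subunit head, RPL7 and RPL35, the latter beside the exit of the peptide tunnel. RPL24 was at 568, 590 and 594 CPM in the control libraries and 525, 534 and 544 CPM in the INO80 siRNA libraries (log2 fold change -0.13, adjusted p = 0.00356 with the block). RPL7 overlapped between groups, at 352, 393 and 375 against 335, 338 and 361 CPM (adjusted p = 0.0194 with the block). Without replicate 2, or without replicate 3, none of these genes passed in edgeR with the block, the adjusted p-values running from 0.0576 to 0.454.

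RPL17, a protein of the tunnel exit, had the largest increase. It was at 55.0, 50.1 and 55.8 CPM in the control libraries and 62.0, 61.4 and 63.9 CPM in the INO80 siRNA libraries, without overlap (log2 fold change 0.22 ± 0.0498 with the block, adjusted p = 0.00157). Its row overlaps the read-through gene RPL17-C18orf32 and 3 small nucleolar RNAs on the same strand.

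RPS23, a small subunit protein at the decoding centre, was at 334, 337 and 345 CPM under control siRNA and 411, 366 and 380 CPM under INO80 siRNA, without overlap (log2 fold change 0.18 ± 0.0365 with the block, adjusted p = 0.000447). RPL13A was at 587, 561 and 537 CPM against 707, 608 and 584 CPM. RPS19, the first gene linked to Diamond-Blackfan anaemia, was at 541, 502 and 477 CPM against 615, 545 and 539 CPM. Both RPL13A and RPS19 overlapped between groups, each with replicate 1 highest in its group, and both were higher under INO80 siRNA in 3 of 3 pairs (log2 fold changes 0.17 ± 0.0343 and 0.16 ± 0.0321, adjusted p = 0.000671 and 0.000512 with the block). RPL27A was at 340, 348 and 329 CPM against 378, 383 and 381 CPM without overlap (log2 fold change 0.17, adjusted p = 0.000553 with the block, and 0.0513 without replicate 3).

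RPL23A, which contacts the signal recognition particle at the tunnel exit, was at 157, 168 and 170 CPM in the control libraries and 178, 186 and 186 CPM in the INO80 siRNA libraries, without overlap (log2 fold change 0.15 ± 0.0365, adjusted p = 0.00381 with the block). The other members outside the stalk that rose with the block included RPL3, RPL19, RPL28, RPL38 and RPL41 of the large subunit and RPS2, RPS3A, RPS4X, RPS7, RPS10, RPS16, RPS20, RPS21, RPS25 and RPS27 of the small. The log2 fold changes of those named ran from 0.088 (RPS20) to 0.15 (RPS27), and RPS3A, RPS16, RPS21 and RPS27 overlapped between groups. The 46 members not called lay between -0.15 (RPL39) and 0.13 (RPL39L) with the block, and RPS9 and RPS6 came nearest to the threshold from outside (adjusted p = 0.05004 and 0.0514), while RPL35 was nearest from inside (0.0443).

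The stalk of the large subunit, where the GTPases of translation dock, is built from RPLP0, RPLP1 and RPLP2 on a base that RPL12 adjoins. All 4 rose with the block, beside 33.8% of all members and 11.4% of all tested genes. None of the 4 overlapped between groups, where 33.8% of all members and 11.3% of all tested genes were higher without overlap. RPLP0 was at 1164, 1177 and 1169 CPM in the control libraries and 1336, 1225 and 1252 CPM in the INO80 siRNA libraries. RPLP1 was at 490, 511 and 525 CPM against 558, 563 and 570 CPM, and RPLP2 at 323, 307 and 321 CPM against 351, 336 and 339 CPM. RPL12 was at 581, 599 and 616 CPM against 661, 658 and 658 CPM. The log2 fold changes with the block were 0.12 ± 0.0320, 0.15 ± 0.0321, 0.11 ± 0.0333 and 0.14 ± 0.0320 for RPLP0, RPLP1, RPLP2 and RPL12 (adjusted p = 0.0073, 0.00106, 0.0173 and 0.00207). Without replicate 3 the adjusted p rose to 0.0968 for RPLP0 and 0.103 for RPLP2, and without replicate 2 to 0.185 for RPLP2. DESeq2 with the block did not call RPLP2 (adjusted p = 0.0772).

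**Figure D4:**
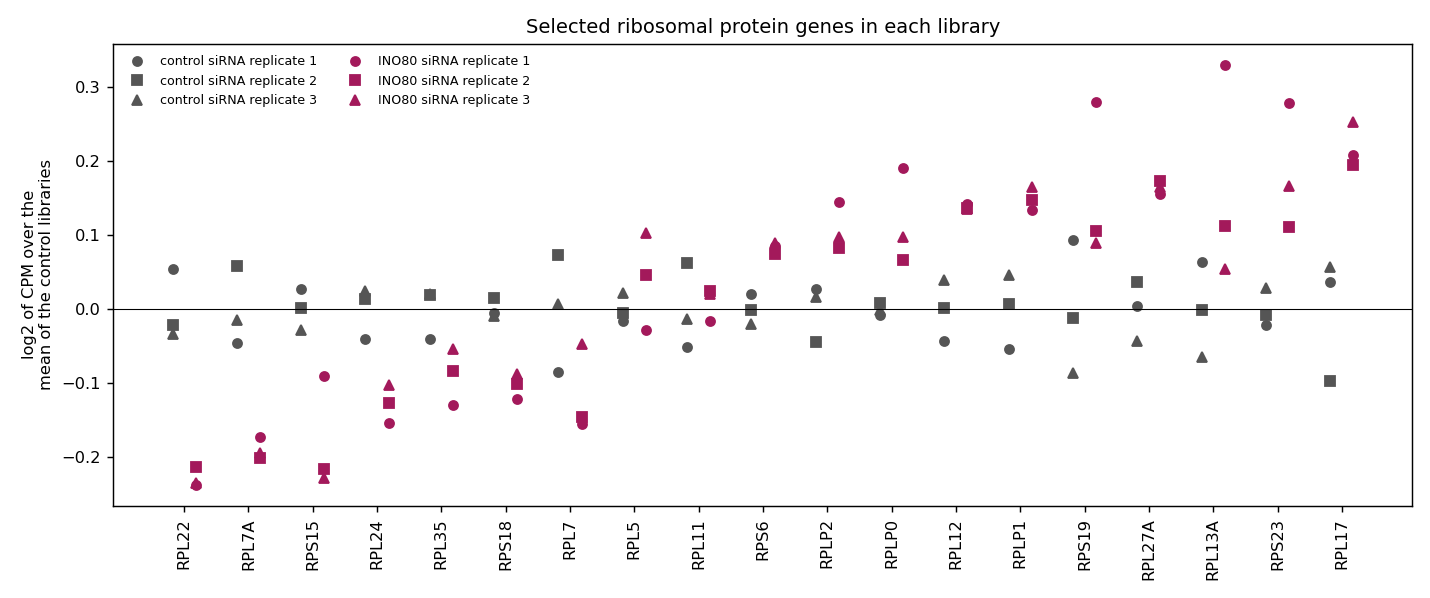
CPM of 19 members in each library as log2 over the mean of the control libraries, grey for control siRNA and magenta for INO80 siRNA, with a symbol for each replicate number. The 7 genes that fell lie at the left, RPL5, RPL11 and RPS6 in the middle, and the 4 stalk genes and 5 others that rose at the right, with replicate 1 of RPL13A and RPS19 high in both groups.

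RPL5 and RPL11, which form the 5S ribonucleoprotein with the 5S ribosomal RNA, did not pass in any model. RPL5 was at 728, 733 and 746 CPM in the control libraries and 721, 759 and 790 CPM in the INO80 siRNA libraries, and RPL11 at 706, 764 and 724 against 723, 744 and 742 CPM. Both genes overlapped, with log2 fold changes of 0.040 ± 0.0318 and 0.011 ± 0.0316 with the block (adjusted p = 0.393 and 0.857). Of 9 members listed here as binding MDM2, a chosen list that need not be complete, RPS7 and RPS27 rose with the block. The other 7 were not called (22.2% rose, beside 33.8% of all members and 11.4% of all tested genes). RPL23, another of them, was at 575, 541 and 528 CPM against 548, 549 and 552 CPM. Of 19 listed Diamond-Blackfan genes, 4 rose (RPS7, RPS10, RPS19 and RPS27), RPL35 fell and 14 were not called. That is 21.1% and 5.26%, beside 33.8% and 8.75% of all members and 11.4% and 13.4% of all tested genes.

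Around the exit of the peptide tunnel, 3 of 7 members rose with the block (RPL17, RPL19 and RPL23A), RPL35 fell and RPL26, RPL31 and RPL39 were not called (42.9% and 14.3%, beside 33.8% and 8.75% of all members and 11.4% and 13.4% of all tested genes). At the mRNA entry and the decoding centre, RPS2 and RPS23 rose, RPS15 fell, and RPS3, RPS9 and RPS27A were not called. Of these 6, 33.3% rose and 16.7% fell, beside 33.8% and 8.75% of all members and 11.4% and 13.4% of all tested genes. None of the 4 members of the mRNA exit and platform (RPS14, RPS26, RPS28 and RPSA) was called. RPS6, the substrate of S6 kinase, was at 679, 669 and 660 CPM against 710, 705 and 712 CPM, without overlap, and its adjusted p with the block was 0.0514. RPL10, which takes part in joining the subunits, RPSA, also known as the laminin receptor, and RPS27A, which is made as a fusion to ubiquitin, all overlapped between groups, with log2 fold changes of 0.047, 0.063 and 0.024 (adjusted p = 0.335, 0.186 and 0.652 with the block). By subunit, 14 of 48 large subunit members rose and 5 fell (29.2% and 10.4%), and 13 of 32 small subunit members rose and 2 fell (40.6% and 6.25%), beside 11.4% and 13.4% of all tested genes. The difference between the subunits was not tested.

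Replicates agreed more closely for these genes than for most. The median coefficient of variation of CPM within the control libraries was 3.85% for the members and 9.37% for all tested genes, and within the INO80 siRNA libraries 3.10% and 9.33%. The members were also more highly expressed (median 121 FPKM, against 4.6 FPKM for all tested genes), and genes of like expression were not compared. The widest spreads of log2 CPM within a group were those of RPS27 (0.512), RPL36A (0.5) and RPL21 (0.437). RPS27, a small subunit protein, was at 74.2, 106 and 99.5 CPM in the control libraries and 96.2, 103 and 110 CPM in the INO80 siRNA libraries, and its log2 fold change was 0.375 in pair 1, -0.035 in pair 2 and 0.14 in pair 3. Its call with the block (adjusted p = 0.0380) was lost without replicate 1 (0.450) and without replicate 3 (0.111). For 53 of the 80 members (66.2%) replicate 1 lay on the same side of the other replicates in both groups, as it did for 70.4% of all tested genes. The median log2 difference of the members within replicate numbers 1, 2 and 3 was 0.073, 0.047 and 0.066, with 57, 55 and 58 members above 0.

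Over all tested genes, fold changes tended to be higher at higher transcript GC content. Over all tested genes with a canonical transcript, the median log2 fold change was -0.016, -0.017, -0.00046, 0.020 and 0.060 from the lowest to the highest of 5 bins of GC content with equal numbers of genes. For members it was -0.031, 0.020, 0.070, 0.10 and 0.082 in the same bins, which held 2, 25, 26, 19 and 7 of them. The median GC content was 52.2% for members that rose with the block, close to the 51.9% of those that fell, and 45.5% for those not called. The part of GC content in these results was not tested. On chromosome 19, which holds 12 members, their median was 0.097, beside 0.033 for all tested genes there. This was not particular to chromosome 19. The medians of the members on chromosomes 11, 17 and 3 were 0.109, 0.093 and 0.024, beside 0.033, 0.029 and 0.0058 for all tested genes there.

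The start motif was present in each set of members, since a run of pyrimidines at base 1 was found in 17 of 22 listed members that rose with the block (77.3%), 5 of 6 that fell (83.3%) and 24 of 36 not called (66.7%). CGGAAG was found in 16 of 22, 2 of 6 and 24 of 36. These shares describe small sets and were not tested.

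Genes that work with the ribosomal proteins were followed with the same fit. Of the ribosomal proteins whose names fall outside the symbol rule, FAU and GNB2L1, which encodes RACK1, were not called (adjusted p = 0.250 and 0.402 with the block). Among the 6 tested paralogues, RPL26L1 fell (21.9, 25.4 and 26.9 against 17.4, 22.9 and 23.3 CPM, log2 fold change -0.22, adjusted p = 0.0225 with the block) and 5 were not called. Of 15 other TOP mRNAs of translation, PABPC1 and EEF1A1 rose with the block (log2 fold changes 0.17 and 0.10, adjusted p = 0.000167 and 0.0186) and 13 were not called, so that 13.3% rose, near the 11.4% of all tested genes. Of 10 tested snoRNA host genes, SNHG1 and SNHG8 rose and SNHG16 fell (50.5, 45.6 and 48.6 against 42.6, 37.2 and 37.7 CPM, log2 fold change -0.30, adjusted p = 0.000169 with the block), which is 20% and 10% beside 11.4% and 13.4% of all tested genes.

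Of 50 tested ribosome biogenesis factors, 10 rose and 5 fell with the block (20% and 10%, beside 11.4% and 13.4% of all tested genes). Those that rose included the box C/D protein NOP56, nucleolin (NCL), NOP2 and BOP1, and those that fell were NOC3L, NOB1, UTP20, BRIX1 and EIF6. EBNA1BP2, a large subunit assembly factor, was at 113, 131 and 134 CPM against 155, 149 and 159 CPM (log2 fold change 0.29 ± 0.0440, adjusted p = 1.57e-05 with the block). The helicase DDX10 was at 23.3, 25.4 and 23.2 against 29.4, 28.7 and 28.5 CPM (log2 fold change 0.27, adjusted p = 0.00414 with the block), and the nuclease NOB1, which matures 18S ribosomal RNA, was at 47.8, 53.5 and 55.5 against 40.7, 45.3 and 45.7 CPM (log2 fold change -0.25, adjusted p = 0.00078 with the block). Of 34 regulators of ribosomal protein synthesis and import, 7 rose and 4 fell with the block (20.6% and 11.8%, beside 11.4% and 13.4% of all tested genes). The 7 were MYC, MXI1, MTOR, EIF4EBP1, EIF4EBP2, MDM2 and IPO7, and the 4 were RPS6KB1, the cap-binding protein EIF4E and the importins IPO5 and IPO9. The importin IPO7 was at 314, 313 and 319 CPM against 353, 361 and 364 CPM, and S6 kinase RPS6KB1 at 45.2, 41.3 and 40.04 against 33.3, 37.1 and 33.9 CPM, neither with overlap (log2 fold changes 0.19 and -0.27, adjusted p = 0.00012 and 0.00158 with the block). MDM2 was at 46.8, 45.2 and 46.7 against 53.9, 55.7 and 51.4 CPM (log2 fold change 0.22, adjusted p = 0.00355 with the block).

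The mitochondrial ribosomal proteins, which build the separate ribosome of mitochondria, were also examined. Of 75 tested, 6 rose and 20 fell with the block (8% and 26.7%, beside 11.4% and 13.4% of all tested genes), and their median log2 fold change was -0.029, against 0.066 for the cytosolic members in the treatment-only model. Without the block MRPL51, MRPL35, MRPS27 and MRPS10 fell, beside 1.49% of all tested genes. The smallest p was that of MRPL51, at 102, 109 and 109 CPM against 67.0, 73.7 and 70.1 CPM (log2 fold change -0.60 ± 0.0626, adjusted p = 0.0063 by edgeR). Its call was lost when control siRNA replicate 3 or INO80 siRNA replicate 3 was left out, at log2 fold changes of -0.59 and -0.60. Pseudogene rows of ribosomal proteins held 0.108% of the counts under control siRNA and 0.110% under INO80 siRNA. Of the 71 of these rows that were tested, 3 were higher and 5 lower with the block (4.23% and 7.04%, beside 11.4% and 13.4% of all tested genes). The 5 lower rows, RPL7P1, RPL7P9, RPL24P4, RPL24P8 and RPL7AP6, are named for RPL7, RPL24 and RPL7A, which also fell. Of the 3 higher rows, RPLP0P6 and RPL3P4 are named for members that rose and RPSAP47 for RPSA, which was not called. These rows were named after their values were seen, and reads of a gene and of its near-identical pseudogene cannot be told apart in such counts.

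**Figure D5:**
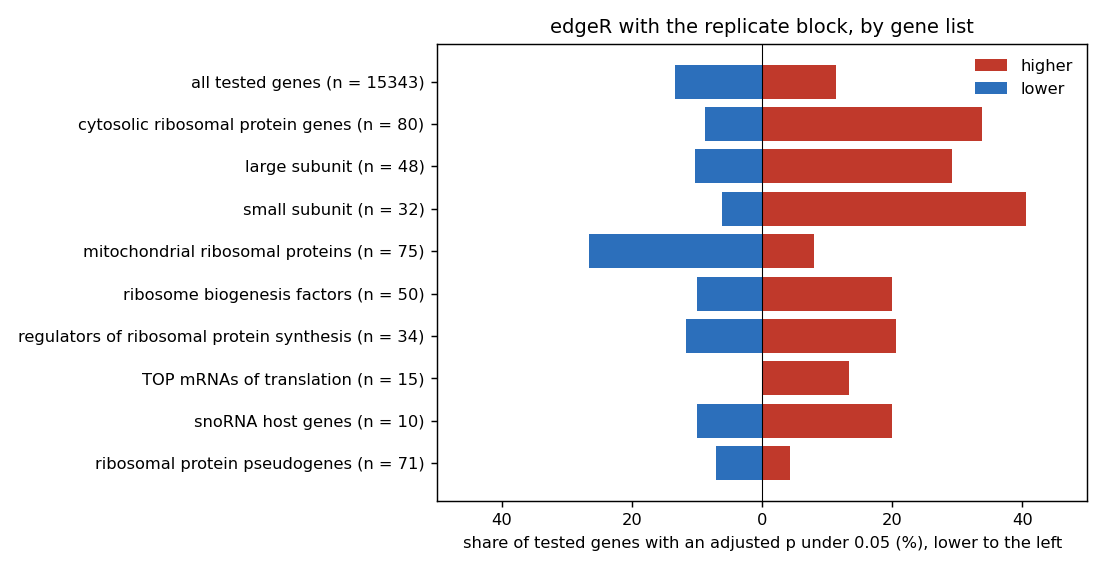
Share of tested genes (%) with an adjusted p under 0.05 in edgeR with the replicate block, higher under INO80 siRNA to the right and lower to the left, for all tested genes and for each list. The cytosolic ribosomal protein genes reach 33.8% higher and 8.75% lower, and the mitochondrial ribosomal protein genes 8% and 26.7%.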

How the data were processed

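The authors deposited 1 gene table for the 6 libraries, with raw read counts and FPKM per gene, GRCh37 coordinates and exonic lengths. The deposited counts carry no normalization, and the deposited FPKM are those counts over exonic length and library total (all 347430 FPKM values were recomputed within 0.01). Per the submitters' processing notes HISAT2 2.0.1, HTSeq and hg19 were used, whereas the study's methods name ELAND and hg38. The kit keeps strand, but whether counting used it is not given in the sources used here.

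Genes were tested in R 4.3.3 with edgeR 4.0.16 (filterByExpr, TMM, quasi-likelihood test, treatment alone, Benjamini-Hochberg over 15343 genes). All 80 members passed the filter, with mean counts up to 27870. Depth limits the 7 members under 1000 counts most, and counting error only is covered by the limit of 3 counts. The alternatives were DESeq2 1.42.0, median-ratio scaling, TMM factors without the members, no filter, the replicate number of the titles as a block, and each library left out. Fits without a replicate number in both groups, other blocked fits and canonical lengths were chosen after seeing the data.

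Replicate numbers were checked as pairs on deviations from group means over the tested genes. Same-numbered libraries correlated at 0.560, 0.343 and 0.343, and no other pair exceeded 0.153, so the block is printed where it changes a call.

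The members and gene lists were chosen with earlier results of these data known. Named were INO80, the members with the 10 smallest p-values among those past the threshold (with the block too), the 3 highest and 3 lowest by fold change, the 5 highest and 5 lowest by FPKM, the 3 with the widest spread within a group, a set of members and paralogues of known role, and the 3 smallest p-values of the other lists. Results for some genes are not reported here. Other members were named after their values were seen. The edgeR and DESeq2 steps were tested on simulated data.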

Additional observations from a re-analysis of the deposited data

How the results depend on the processing

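Without the block, 0 members were called higher and 0 lower under median-ratio scaling, TMM without the members, no filter, or any single library left out, whereas the replicate block gave 27 higher and 7 lower, DESeq2 gave 1 lower, and leaving out replicate 1 in both groups gave 2 lower (RPL7A and RPS15, beside 2.80% of all genes tested there). For the block, DESeq2 gave 13 higher. Leaving out a replicate number in both groups gave 8 to 28 higher and 3 to 9 lower, where fewer libraries enter each fit. The values were 17 and 3 without replicate 2, and 8 and 3 without replicate 3. The median log2 fold change of the members stayed between 0.045 and 0.077, and the difference in their share of counts between 0.117 and 0.165 points.

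Genes near 0 changed sign when libraries were left out, and the cause was not tested. Their log2 fold changes ran from -0.0154 to 0.0425 for RPL11 (negative without control siRNA replicate 1, at -0.000819 without control siRNA replicate 3, and at -0.00653 without replicate 1 in both groups), from -0.025 to 0.041 for RPL23 (-0.00409 without control siRNA replicate 2) and from -0.0416 to 0.193 for RPL36A (-0.000959 without INO80 siRNA replicate 3). RPS27A ran from -0.00497 to 0.0538 and RPL22L1 from -0.0193 to 0.154, each negative without INO80 siRNA replicate 1. RPS27L ran from -0.134 to 0.0454, and GNB2L1 was at -0.000639 without replicate 1 in both groups. Of 696 other fits of 58 named genes, 636 kept direction and side of the threshold, 38 passed it newly, and 11, all of MRPL35, MRPL51 and MRPS27, no longer did. Among the named genes, the replicate block changed no call other than those given with it above.

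With 3 libraries a group and a median standard error of 0.0574 on the log2 scale (0.0335 with the block), changes of the size seen here lie near the limit of what these libraries resolve.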
